A study of Mus musculus with 8 samples.

Results

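The genes described here are 9 genes of the insulin-like growth factor (IGF) pathway: the ligand genes Igf1 and Igf2, the noncoding H19 that neighbours Igf2, the receptor genes Igf1r and Igf2r, the binding protein genes Igfbp3, Igfbp4 and Igfbp5, and Irs1. Every myogenin or p300 ChIP-seq interval that reached within 50 kb of an annotated gene body was taken, which gave 55 of the 43759 intervals in 4 lists. C2C12 cells, an established line of C3H mouse myoblasts able to differentiate into myotubes, were held for 24 h in differentiation medium alone (Ctl) or with 50 nM bexarotene (Bex), an agonist of the retinoid X receptor (RXR). Myogenin and p300, a histone acetyltransferase, were each profiled in 1 library per condition, so the lists have no replicate error and no test between conditions was made. The lists give mm9 positions of called peaks and no tag counts, so a peak that is missing from a list may have fallen below the threshold of the authors, and the lists do not give the depth of each library. Shares are followed by their 95% Wilson intervals in parentheses, for counting error alone and not for the variation between cultures.

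IGF1 and IGF2 are secreted ligands that activate the IGF1 receptor, a tyrosine kinase, and IRS1 is the docking protein that passes the signal on to PI3 kinase and Akt. The IGF2 receptor takes up IGF2 for degradation, and the binding proteins hold the ligands outside the cell. In differentiating myoblasts the pathway is known to promote survival, fusion and growth, with IGF2 made by the cells themselves. Igf2 and H19 are imprinted neighbours that share enhancers, and Airn, which is transcribed antisense through the start of Igf2r, silences Igf2r on the paternal allele in many tissues. The lists do not tell the parental alleles apart.

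Overlapping intervals of both myogenin lists were merged into 11 regions near these genes. The sequences below are those regions that overlapped a p300 interval or held at least 2 E-boxes, the sites bound by myogenin and its partners. An E-box was counted where CAGCTG stood, or where CACCTG or, for the opposite strand, CAGGTG did. Sequences are from the plus strand of mm9. Runs of 6 capitals are E-boxes and runs of 10 capitals are matches to the MEF2 consensus, a motif of the muscle factors that act with myogenin. For regions over 300 bp, the 300 bp that hold the most E-boxes are shown.
H19, in an intron of Nctc1, chr7:149736839-149737138: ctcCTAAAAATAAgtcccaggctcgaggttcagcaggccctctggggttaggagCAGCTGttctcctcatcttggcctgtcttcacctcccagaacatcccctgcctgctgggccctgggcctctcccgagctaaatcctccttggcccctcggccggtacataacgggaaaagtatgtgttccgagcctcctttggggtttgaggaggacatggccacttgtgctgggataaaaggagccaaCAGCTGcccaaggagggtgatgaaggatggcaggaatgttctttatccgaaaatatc
H19, upstream, chr7:149786407-149786574: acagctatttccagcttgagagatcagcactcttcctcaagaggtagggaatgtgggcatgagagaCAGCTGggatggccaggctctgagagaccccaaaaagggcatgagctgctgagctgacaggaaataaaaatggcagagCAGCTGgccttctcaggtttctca
Igf1r, downstream in Pgpep1l, chr7:75408208-75408507: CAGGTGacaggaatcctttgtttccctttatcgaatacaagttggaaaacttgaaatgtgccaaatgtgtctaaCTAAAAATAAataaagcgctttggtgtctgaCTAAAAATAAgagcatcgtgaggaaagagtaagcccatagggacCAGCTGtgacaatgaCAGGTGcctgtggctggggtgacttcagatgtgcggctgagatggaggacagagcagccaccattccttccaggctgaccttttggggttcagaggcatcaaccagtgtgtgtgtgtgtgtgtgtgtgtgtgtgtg
Igf2r, intron 1, chr17:12948862-12949136: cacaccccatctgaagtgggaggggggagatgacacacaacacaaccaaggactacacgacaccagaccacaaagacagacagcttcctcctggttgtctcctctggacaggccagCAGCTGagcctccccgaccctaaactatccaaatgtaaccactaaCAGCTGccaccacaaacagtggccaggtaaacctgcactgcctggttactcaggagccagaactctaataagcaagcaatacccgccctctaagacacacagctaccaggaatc
Igf2r, intron 1, chr17:12952654-12952953: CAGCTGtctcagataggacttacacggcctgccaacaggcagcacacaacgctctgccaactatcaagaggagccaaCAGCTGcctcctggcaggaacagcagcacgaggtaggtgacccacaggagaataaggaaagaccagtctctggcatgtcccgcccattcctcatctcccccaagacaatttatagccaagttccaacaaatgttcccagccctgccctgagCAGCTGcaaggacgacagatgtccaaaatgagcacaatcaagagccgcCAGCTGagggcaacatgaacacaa
Irs1, downstream, chr1:82196539-82196833: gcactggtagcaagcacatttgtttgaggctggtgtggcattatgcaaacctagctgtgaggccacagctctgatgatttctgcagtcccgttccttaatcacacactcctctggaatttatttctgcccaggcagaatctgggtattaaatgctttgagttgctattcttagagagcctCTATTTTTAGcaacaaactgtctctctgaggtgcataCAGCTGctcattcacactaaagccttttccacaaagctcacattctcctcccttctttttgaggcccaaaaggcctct
Irs1, upstream in Rhbdd1, chr1:82317010-82317309: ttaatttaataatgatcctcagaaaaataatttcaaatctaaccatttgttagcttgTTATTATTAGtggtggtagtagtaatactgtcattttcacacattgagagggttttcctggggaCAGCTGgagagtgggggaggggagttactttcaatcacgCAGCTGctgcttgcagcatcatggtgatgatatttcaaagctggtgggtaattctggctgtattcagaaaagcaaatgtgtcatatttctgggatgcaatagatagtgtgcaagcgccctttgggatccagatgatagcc

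Of the 55 intervals, 6 were in the myogenin control list, 11 in the myogenin bexarotene list, 26 in the p300 control list and 12 in the p300 bexarotene list. All 9 genes had an interval of some list, against 64.0% of 22350 protein-coding genes. All 9 had a p300 interval in control, and 6 had one with bexarotene. Myogenin intervals lay near 4 of the genes in control (H19, Igf1r, Igf2r and Irs1) and near 5 with bexarotene, when Igf1 was added. Within 10 kb they lay near 1 gene in control (Igf2r) and 2 with bexarotene (Igf1 and Igf2r). No share of all coding genes is given for 10 kb, so these 2 counts have no reference here. Among the protein-coding genes, 32.4% had a myogenin interval within 50 kb in control and 32.9% with bexarotene, and 53.8% and 35.2% had a p300 interval. An interval of each of the 4 lists was found for 4 of the 9 genes against 14.7% of the coding genes. The windows of all 9 genes together span 1426 kb, in which the bexarotene myogenin list had 0.772 intervals per 100 kb against 0.252 over the chromosomes as a whole, and the control myogenin list had 0.421 against 0.224. For p300 the densities were 1.82 against 0.836 in control and 0.842 against 0.347 with bexarotene. The chromosomes include long stretches without genes, and the genes were chosen with earlier results known, so these ratios describe the loci and test nothing.

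**Figure D1:**
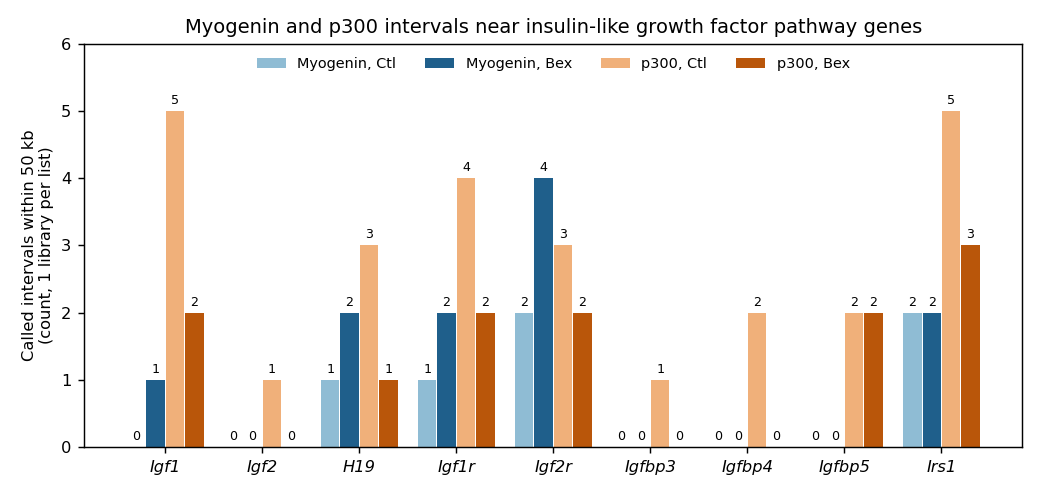
Number of called intervals within 50 kb of each gene body (y axis, count) for the 4 lists, with 1 library per list. Igf2r has the most bexarotene myogenin intervals (4), Igf1 and Irs1 have the most control p300 intervals (5 each), and Igf2, Igfbp3, Igfbp4 and Igfbp5 have no myogenin interval.

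Every control myogenin interval near these genes was also called with bexarotene: 0 of 6 were control-only (Wilson upper bound 39.0%), where 49.4% of the whole control list was. This rests on an overlap of 1 bp: with a reciprocal overlap of 50% the Igf1r interval became control-only, which gave 1 of 6, 16.7% (3.01 to 56.4), against 55.1% of the list. Of the 11 bexarotene intervals, 5 were bexarotene-only, 45.5% (21.3 to 72.0), beside 54.9% of the whole list, which lies inside that interval. Those 5 lay near Igf1, H19, Igf1r and, as a pair, Igf2r. For p300, 17 of 26 control intervals were control-only, 65.4% (46.2 to 80.6) against 67.3% of the list, and 3 of 12 bexarotene intervals were bexarotene-only, 25.0% (8.89 to 53.2) against 20.3%. The whole p300 lists hold 22051 control and 9154 bexarotene intervals, where 26 and 12 were found near these genes. Seen by region, 6 of the 11 merged myogenin regions were called in both conditions, 54.5% (28.0 to 78.7), against 31.3% of all regions.

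**Figure D2:**
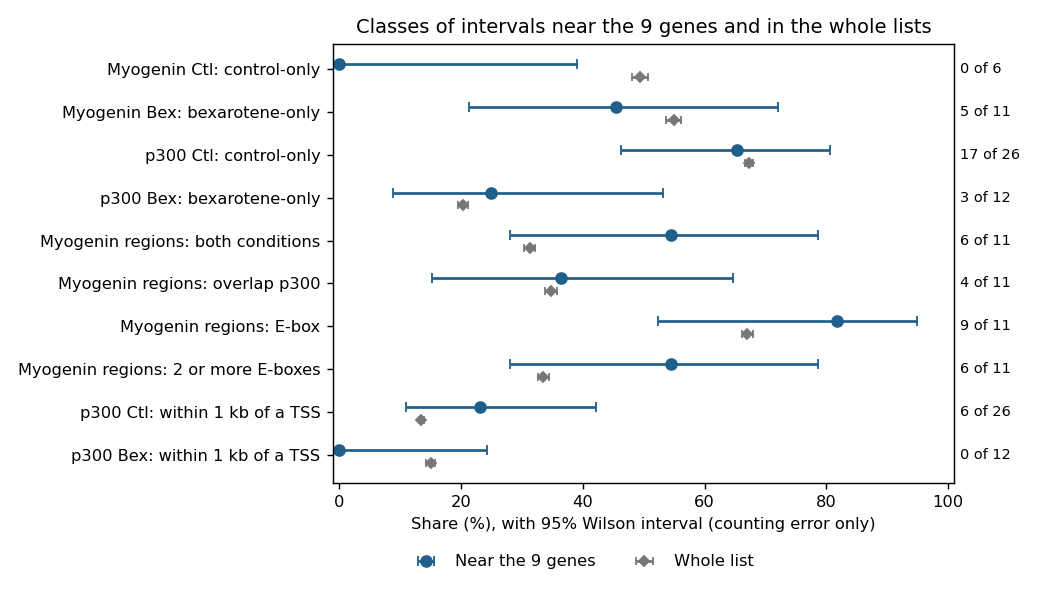
Shares of intervals or merged myogenin regions by class (x axis, percent with 95% Wilson intervals), near the 9 genes (circles) and in the whole lists (diamonds). The share of control-only myogenin intervals, 0 of 6, is the only one of the 10 plotted whose Wilson interval leaves out the whole-list share, which it no longer does with a reciprocal overlap of 50% (1 of 6).

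Among the ligands, Igf1 (chr10:87321010-87399792, plus strand) had no myogenin interval in control and 1 with bexarotene, and its p300 intervals numbered 5 in control and 2 with bexarotene. The p300 intervals in control lay 134 bp from an annotated Igf1 start in intron 1, at chr10:87323374-87323595, then in intron 2 at 18.6 and 22.0 kb from the gene start, in intron 4 at 69.1 kb, and 23.1 kb past the gene end. With bexarotene the intervals in intron 2 at 18.5 kb and in intron 4 at 69.2 kb were called, at 203 and 158 bp, where control had 378 and 253 bp. The longest p300 interval near any of the genes, 600 bp at chr10:87342727-87343326 in intron 2, was control-only, as was the interval at the start. The single myogenin interval, chr10:87407320-87407487, was bexarotene-only, lay 7.53 kb past the gene end, had the smallest length of its list (168 bp) and held 1 CAGCTG. In control the nearest myogenin interval to the gene body was 141 kb away.

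Igf2 (chr7:149836673-149852721, minus strand) had no myogenin interval and no bexarotene p300 interval in its window. Its only interval was a control p300 interval of 211 bp at chr7:149885278-149885488, 32.7 kb upstream and 32 bp from an annotated start of Ins2, the insulin gene next to it. H19 (chr7:149761434-149764048, minus strand), 72.6 kb away, had 1 and 2 myogenin intervals and 3 and 1 p300 intervals, where the control value stands before the bexarotene value, as in the pairs that follow. A region in intron 2 of Nctc1, a noncoding gene transcribed across a known muscle enhancer of this imprinted domain, was called in all 4 lists. Its myogenin interval was 433 bp in control (chr7:149736807-149737239) and 443 bp with bexarotene, sharing 375 bp. Its p300 interval was 454 bp in control and 313 bp with bexarotene, the latter lying whole within the former. The bexarotene myogenin interval was centered 27.1 kb past the H19 start. The merged myogenin region was centered 116 kb from the Igf2 start and held 2 CAGCTG, separated by 183 bp, and a MEF2 match of letters CTAAAAATAA.

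A bexarotene-only myogenin interval of 168 bp lay between H19 and Igf2, 22.4 kb upstream of H19 and 66.2 kb from the Igf2 start, with 2 CAGCTG 72 bp apart and no p300 interval over it. It ended 99 bp outside the 50 kb window of Igf2, and is thus counted within 50 kb for H19 alone. A control p300 interval of 159 bp, the smallest length of its list, covered the H19 start at chr7:149763900-149764058, with 66.0% GC and no E-box. That interval is shown because it spans the annotated start of H19 and was not called with bexarotene.
H19 start, chr7:149763900-149764058: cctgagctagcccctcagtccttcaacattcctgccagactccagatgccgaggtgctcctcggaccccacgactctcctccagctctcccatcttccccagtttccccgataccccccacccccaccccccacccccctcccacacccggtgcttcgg

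Igf1r (chr7:75097713-75371484, plus strand) had 1 and 2 myogenin intervals and 4 and 2 p300 intervals. No myogenin interval lay inside the gene. They lay 36.7 kb or more past its end, in intron 1 of Pgpep1l, whose annotated start was 0.799 kb away in control and 0.682 and 0.164 kb away with bexarotene. The region called in both conditions was 278 bp in control (chr7:75408181-75408458) and 211 bp with bexarotene, with 127 bp in common, and held 3 E-boxes and 2 MEF2 matches over its 362 bp. Both MEF2 matches lay in the control interval and outside the bexarotene interval. The bexarotene-only interval beside it, chr7:75408844-75409066, held neither motif. A p300 interval called in both conditions (410 and 337 bp) lay farther out, over the last exon of the noncoding gene Gm16157. Within Igf1r, p300 was called in intron 2 at 69.1 kb from the start in both conditions (301 and 158 bp). The other p300 intervals were control-only and 159 bp long, at 1.02 kb upstream of the start and at 229 bp from an internal start 196 kb into the gene.

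Igf2r (chr17:12875272-12962530, minus strand) had 2 myogenin intervals in control and 4 with bexarotene, the highest count of the 9 genes, and 3 and 2 p300 intervals. Of the protein-coding genes 4.21% had at least 4 bexarotene myogenin intervals within 50 kb, though longer genes have larger windows. All of these myogenin intervals lay in intron 1 within a stretch of 9.53 kb, which is also intron 1 of the antisense Airn. At chr17:12952630-12953025 an interval of 396 bp in control was matched by one of 410 bp with bexarotene, 395 bp of them shared, 9.7 kb from the gene start. It held 4 CAGCTG, the most of any region near these genes, and p300 was called on it in both conditions, at 479 bp in control and 198 bp with bexarotene. An interval at 11.5 kb from the gene start was likewise called in both conditions (172 and 228 bp), without an E-box or p300. The bexarotene-only intervals lay at 13.5 kb, chr17:12948862-12949136, with 2 CAGCTG 39 bp apart, and at 18.9 kb, chr17:12943511-12943727, with 1 E-box. The latter center was 47 bp from an internal annotated Igf2r start. Upstream of Igf2r, p300 was called at 35.2 kb in both conditions and at 13.4 kb in control, each in intron 1 of Airn.

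**Figure D3:**
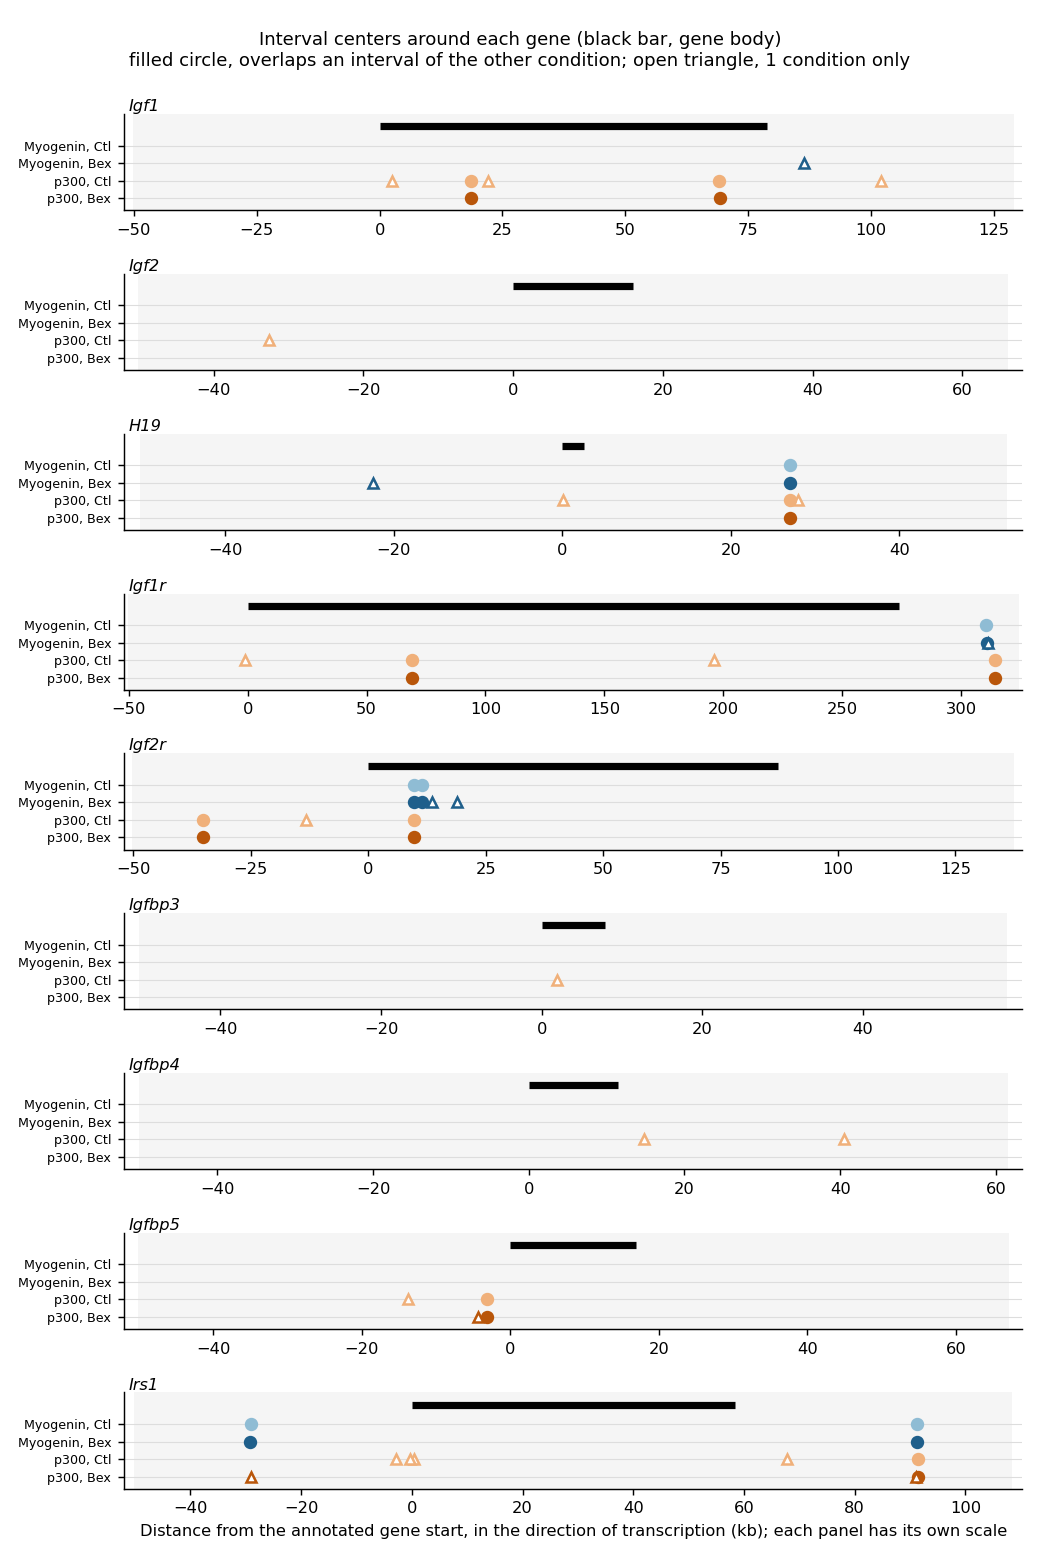
Centers of the intervals around each gene (x axis, kb from the annotated gene start along the direction of transcription; rows, the 4 lists; gray, the window of 50 kb on each side). Filled circles overlap an interval of the other condition and open triangles do not. The myogenin intervals of Igf2r sit together in intron 1, and those of H19, Igf1r and Irs1 lie outside the gene bodies.

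The binding protein genes had p300 intervals and no myogenin interval. Igfbp3 (chr11:7106089-7113926) had 1 control p300 interval, 159 bp in intron 1, and none with bexarotene. Igfbp4 (chr11:98902558-98913969) had 2 in control, of 201 bp at 3.35 kb past the gene end and of 159 bp in intron 2 of Tns4, and none with bexarotene. Igfbp5 (chr1:72904506-72921458), whose product is made in abundance by differentiating myoblasts, had 2 in each condition, all upstream. At 3.17 kb upstream an interval of 159 bp in control overlapped one of 158 bp with bexarotene by 142 bp. A second bexarotene interval of 158 bp lay at 4.34 kb and a second control interval of 200 bp at 13.8 kb, each called in 1 condition. The nearest myogenin intervals to the gene bodies were 439 and 158 kb away for Igfbp3, control first, 94.7 and 94.6 kb for Igfbp4, and 77.0 and 74.3 kb for Igfbp5.

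Irs1 (chr1:82229676-82287991, minus strand) had the most intervals of the 9 genes, 12 in all, with 2 myogenin intervals in each condition and 5 and 3 p300 intervals. Both myogenin regions were called in both conditions. The region downstream of the gene, 91.3 kb from its start and 32.8 kb past its end, was called in all 4 lists. Its myogenin interval was 172 bp in control, the smallest of its list, and 295 bp with bexarotene, and the E-box it held, 1 CAGCTG, lay in the bexarotene interval and outside the control interval. Its p300 interval was 206 bp in control and 158 bp with bexarotene, and a second, bexarotene-only p300 interval of 158 bp lay next to it. A control-only p300 interval of 237 bp lay 9.38 kb past the gene end. The upstream region, in intron 1 of Rhbdd1 and 29.1 kb from the Irs1 start, had myogenin intervals of 337 and 333 bp with 253 bp in common and 2 CAGCTG 33 bp apart. There p300 was called with bexarotene (158 bp, the smallest of its list) and not in control. Each region held 1 MEF2 match.

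At the Irs1 start p300 was called in control alone, on an interval of 430 bp in the first exon, 350 bp from the start, and on one of 323 bp at 290 bp upstream. The latter had 74.6% GC and 2 copies of GGGCGG on the minus strand, the Sp1 site common in promoters. A further 211 bp interval at 2.90 kb upstream was also control-only. Sequence of the upstream promoter interval is given with its Sp1 sites in capitals, since it lay just upstream of the Irs1 start and was called in control alone.
Irs1 promoter, central 300 bp, chr1:82288131-82288430: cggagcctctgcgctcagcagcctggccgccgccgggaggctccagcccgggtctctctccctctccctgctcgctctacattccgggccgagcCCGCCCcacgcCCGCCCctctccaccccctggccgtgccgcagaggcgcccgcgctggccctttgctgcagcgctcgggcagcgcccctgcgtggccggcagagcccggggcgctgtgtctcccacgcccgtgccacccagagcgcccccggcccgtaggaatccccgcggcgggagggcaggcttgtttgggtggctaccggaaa

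Within 1 kb of an annotated TSS lay 6 of the 26 control p300 intervals, 23.1% (11.0 to 42.1) beside 13.5% of the list, at starts of Igf1, H19, Ins2 and, as a pair, Irs1, and at the internal start of Igf1r. All 6 were control-only (Wilson lower bound 61.0%), where 74.1% of the promoter intervals of the whole control list were. With bexarotene 0 of 12 p300 intervals lay within 1 kb of a TSS (upper bound 24.2%), against 15.0% of the list. Of the 20 control p300 intervals farther from a TSS, 11 were control-only, 55.0% (34.2 to 74.2) against 66.3%. The whole-list shares lie inside each of these intervals at 50 kb. Within 10 kb, the share of control p300 intervals at a TSS was 5 of 16, 31.2% (14.2 to 55.6), and by nearest TSS it was 5 of 13, 38.5% (17.7 to 64.5). These settings pick intervals for their closeness to a gene or TSS, as the 50 kb window does to a lesser degree, so the share of the whole list is no like-for-like reference. With 100 kb the share was 17.0% (8.89 to 30.1).

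The 9 p300 pairs called in both conditions were all shorter with bexarotene, with a median length of 328 bp in control and 158 bp with bexarotene, which is the smallest length of that list. The Igfbp5 pair differed by 1 bp, with both intervals at the smallest length of their list (159 and 158 bp). In the whole lists 90.0% of 7202 such intervals were shorter. The 6 myogenin pairs had medians of 308 and 314 bp, and 4 were longer and 2 shorter with bexarotene. In the whole lists, 45.6% of 2992 such myogenin intervals were longer and 53.9% shorter. Of the p300 intervals, those of the smallest length made up 6 of 26 in control, 23.1% (11.0 to 42.1) against 34.3% of the list, and 8 of 12 with bexarotene, 66.7% (39.1 to 86.2) against 48.9%. For myogenin the counts were 2 of 6 in control, 33.3% (9.68 to 70.0) against 54.8%, and 2 of 11 with bexarotene, 18.2% (5.14 to 47.7) against 50.0%. The last is the only one of these 4 shares whose Wilson interval leaves out that of the list. Interval length is the only measure of size that the lists hold.

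**Figure D4:**
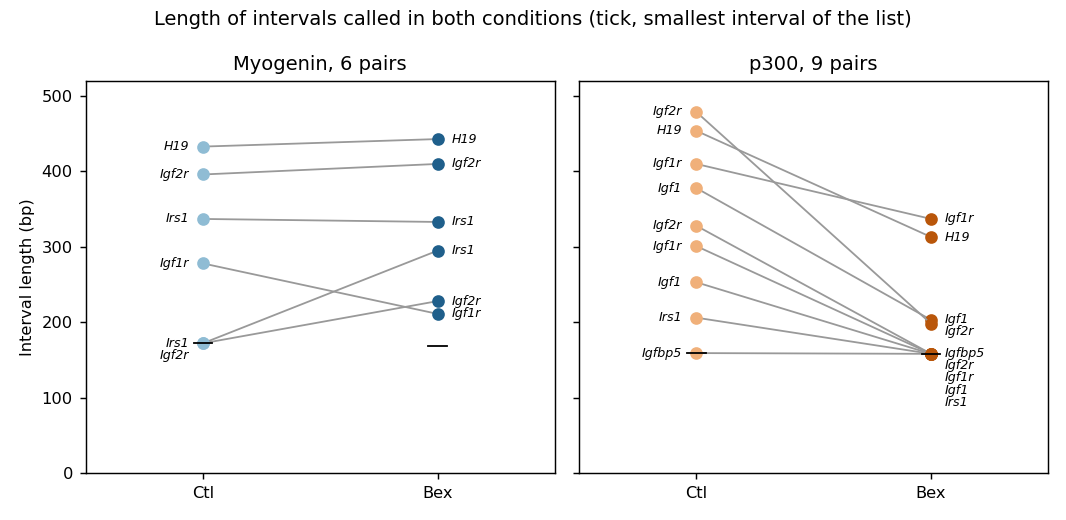
Length in bp (y axis, from 0) of the intervals called in both conditions, with lines joining control and bexarotene and ticks at the smallest interval of each list. All 9 p300 pairs slope down, 5 of them to 158 bp, while the 6 myogenin pairs go either way.

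Of the 11 myogenin regions 4 overlapped a p300 interval, 36.4% (15.2 to 64.6) beside 34.7% of all 9553 regions: the Nctc1 region of H19, the Igf2r region with 4 E-boxes and both Irs1 regions. All 4 were called by myogenin in both conditions. Of the 11 regions 3 overlapped a control p300 interval, against 31.5% of all regions, and 4 a bexarotene p300 interval, against 21.4%. At least 1 E-box was found in 9 of 11 regions, 81.8% (52.3 to 94.9) against 67.0% of all regions, and 2 or more in 6, 54.5% (28.0 to 78.7) against 33.5%. CAGCTG was present in 8 of the 11 regions, 72.7% (43.4 to 90.3), and its share of all regions is not given here. A MEF2 match occurred in 4 of 11 regions, 36.4% (15.2 to 64.6), against 3.61% of all myogenin regions. Those were the Nctc1 region, the Pgpep1l region and both Irs1 regions, with 5 matches in all. In windows of equal size, within 100 bp of the center, the match occurred in 3 of 11 regions and 3.04% of all. Counted by list in the same windows, it occurred in 3 of 6 control myogenin intervals, 50.0% (18.8 to 81.2) against 3.04%. With bexarotene it occurred in 1 of 11, 9.09% (1.62 to 37.7) against 3.30%, which lies inside that interval. The low bexarotene count depends on this window. Over their whole length, the bexarotene intervals of the Nctc1 region and of both Irs1 regions held a match. The control intervals of these regions and of the Pgpep1l region did too. Whole-list shares by list are not given for whole intervals. The MEF2 consensus was searched after the positions were known, a match is not a measured binding site, and the regions near these genes are few.

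**Figure D5:**
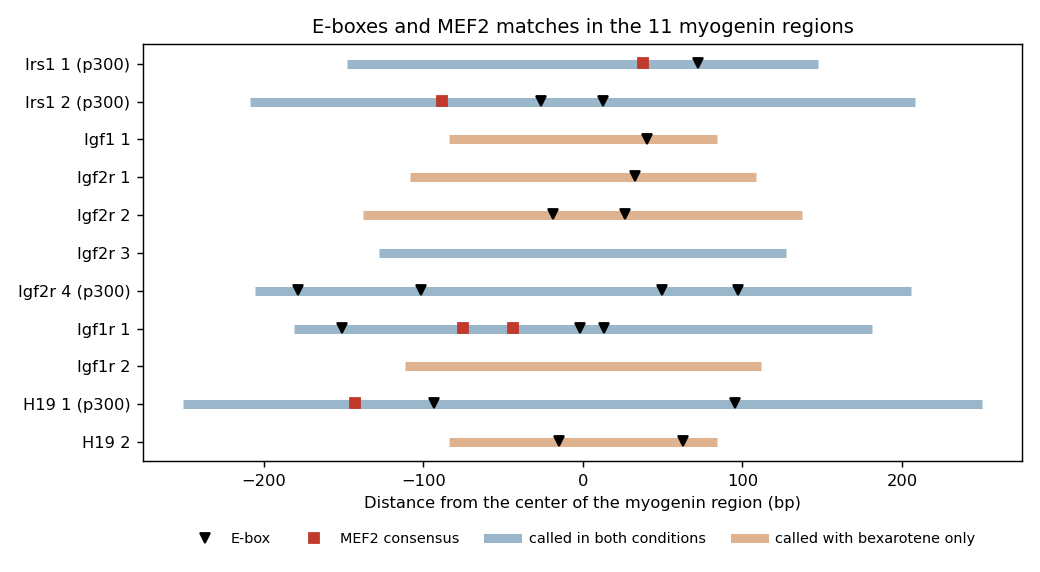
E-boxes (triangles) and MEF2 matches (squares) in the 11 myogenin regions, by distance in bp from the region center. Blue bars were called in both conditions and orange bars with bexarotene only, with "p300" marking regions that overlap a p300 interval. All 4 regions with a MEF2 match were called in both conditions, though both matches of the first Igf1r region lie outside its bexarotene interval.

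Other motifs near these genes were counted within 100 bp of the center of each interval. The AP-1 sequences TGACTCA or TGAGTCA were in 4 of 26 control p300 intervals, 15.4% (6.15 to 33.5), against 27.8% of the list, and in 1 of 12 bexarotene intervals, against 27.1%. The Runx core TGTGGT was in 8 of 26 against 31.1%, and the Tead core GGAATG in 6 of 26 against 18.7%. The Sp1 site GGGCGG was in 5 of 26, 19.2% (8.51 to 37.9), against 9.58%. AGGTCA, the half-site of nuclear receptors such as RXR, was in 1 of 26 against 10.8% of the list in control, 0 of 12 against 11.3% with bexarotene, and 2 of 11 against 13.5% of the bexarotene myogenin intervals. All were counted on both strands, and the whole-list shares of these motifs lie within the Wilson intervals of the members.

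Of the 55 intervals 20 lay inside the gene body of the member, 15 upstream and 20 downstream. The nearest annotated TSS belonged to the member gene for 24 and to another gene for 31, among them Nctc1, Pgpep1l, Ins2, Rhbdd1 and Tns4. It was that of Gm16176 for every Igf1 interval but the one 134 bp from an Igf1 start. For every interval downstream of Irs1 it was that of Gm9747. The lists do not show which gene an interval acts on.

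Another 26 genes of insulin and IGF signaling were counted in the same way. Myogenin was within 50 kb of 15 in control and 14 with bexarotene, against 32.4% and 32.9% of coding genes, and p300 of 22 and 13, against 53.8% and 35.2%. All 4 lists were present for 8 of them, against 14.7% of coding genes: Insr, the insulin receptor, the binding protein genes Igfbp6 and Igfbp7, the adaptor genes Grb10 and Shc1, the kinase genes Pik3ca and Pdpk1, and the protease gene Pappa2. Akt2, a kinase downstream of the receptors, had the most myogenin intervals, with 6 in control, 5 with bexarotene, and 3 and 0 p300 intervals. Igfbp7 had 2 and 4 myogenin intervals and 7 and 2 p300 intervals. Grb2, Pik3r1, Igf2bp2 and Igf2bp3 had intervals of 3 lists, as did Igfbp2, which neighbours Igfbp5 and shares 4 intervals with its window. Ins2 and Igfbp1 had 1 control p300 interval each, shared with the windows of Igf2 and Igfbp3. Ins1 and Insrr had none. As a check of the cells, 7 of 8 muscle genes (Myog, Myod1, Des, Acta1, Chrna1, Mybph and Tnnt2) had a myogenin interval within 50 kb in control and Ckm had none. With bexarotene 6 of the 8 had one, since Des had none. The windows of Myog and Mybph overlap in part, so the 8 are not all separate loci. A p300 interval lay near 5 of the 8 in control and 6 with bexarotene. Of 6 marker genes of other cell types 0 had a myogenin interval, and 2 (Gfap and Pax6) had a control p300 interval.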

How the data were processed

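ChIP-seq of myogenin and p300 was deposited as 1 peak list for each of 4 libraries of the 8 in the series. The authors aligned reads to mm9 with BWA-MEM (myogenin) or Bowtie (p300), and ran HOMER findPeaks in factor style. Picard was used to take out duplicate reads, a step given after the myogenin alignment without naming a factor. Whether it also applied to p300 is not certain. The deposited lists hold chromosome, start and end, with no other score or count. Starts are counted from 0 there and from 1 here. Gene bodies and 95495 transcript starts came from GENCODE vM1, and sequences from the same mm9 build. Intervals within 50 kb of a member gene were classed as shared when they overlapped an interval of the other condition by at least 1 bp. Distances to a start are from the interval center, and distances to a gene body or end from the nearer interval edge. Named genes were the 9 members, other pathway genes with intervals of at least 3 lists or in a member's window, and neighbours with a nearer TSS. Not every gene that this rule names is reported here. Named outside the rule were Ins1 and Insrr, which had no interval, the marker genes, and Gm16157, which p300 intervals overlapped. Members and lists were chosen with earlier results of these data known, and the motifs other than the E-box after positions were seen. The lists hold no counts, so the depth of each library was not used here. The input and H3K27me3 libraries were not used here. No test was made with 1 library per condition. Functions were tested on simulated data. Alternatives changed the window, the overlap, the interval length, the motif and the TSS catalog. Python 3.11.15, numpy 2.4.6, pandas 2.3.3, scipy 1.17.1, pysam 0.24.0 and matplotlib 3.10.9 were used.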

Additional observations from a re-analysis of the deposited data

How the results depend on the processing

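Of 36 alternative values of the 5 shares (bexarotene-only myogenin, control-only p300, myogenin with p300, myogenin with an E-box, and control p300 within 1 kb of a TSS), 35 stayed within the Wilson interval of the value reported. The exception was the E-box share, which rose from 81.8% to 100% when any CANNTG was counted. These intervals are wide, since the shares rest on 11 or 26 intervals. Among the values that stayed inside, the control-only share of p300 ranged from 59.6% with a window of 100 kb to 80.0% among intervals longer than the smallest of their list, and the bexarotene-only share of myogenin from 45.5% to 60.0%, both with a window of 10 kb and by nearest TSS. Myogenin regions with p300 ranged from 1 of 5, under each of the same settings, to 42.9% with 100 kb (36.4% as reported). Control p300 within 1 kb of a TSS ranged from 17.0% with 100 kb to 38.5% by nearest TSS (23.1% as reported), and the E-box share fell to 54.5% within 50 bp of the center. Of 36 counts per gene and list, a window of 10 kb lowered 18 and one of 100 kb raised 21, while leaving out intervals of the smallest length lowered 14 and left 4 of 12 bexarotene p300 intervals. The genes with a myogenin interval, 4 in control and 5 with bexarotene, became 1 and 2 with 10 kb, 7 and 8 with 100 kb, and 4 and 4 without the smallest intervals. Shares of all coding genes are given for 50 kb alone. The control-only share of myogenin, whose alternatives were chosen after seeing the data, stayed at 0 in 5 of 7 settings and became 1 of 10 with 100 kb and 1 of 6 with a reciprocal overlap of 50%. Its Wilson interval held the list's share with 10 kb, by nearest TSS (0 of 2 in each), without the smallest intervals (0 of 4) and with the reciprocal overlap. No paired analysis was possible because each condition has 1 library.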

Other observations

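Intervals between 50 and 100 kb from a gene body were counted for each gene on its own, 52 in all. The 6 of Igf2 also lie within 50 kb of H19 and are among the 55 described above. The largest group was at Igfbp5, with 22 of the 52, a stretch singled out after its values were seen. Upstream of the gene, 15 of the 22 lay within 18.4 kb at chr1:72997951-73016391. These were 2 control and 5 bexarotene myogenin intervals and 4 p300 intervals of each condition, many of which overlap one another. None of the 4 control p300 intervals there was control-only, against 67.3% of the whole list, and none of the 4 with bexarotene was bexarotene-only, against 20.3%. None of the 2 control myogenin intervals was control-only, against 49.4%, and 3 of the 5 with bexarotene were bexarotene-only, against 54.9%.

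At the near end, 77.0 kb from the gene body, myogenin intervals of 270 bp in control and 264 bp with bexarotene lay in p300 intervals of 842 and 678 bp. At the far end, 94.6 kb away, myogenin intervals of 320 and 316 bp lay in p300 intervals of 422 and 550 bp. The nearest annotated TSS was that of Tnp1, a gene of spermatid chromatin, and the lists do not show which gene the intervals act on. At Igf1r, a control p300 interval of 461 bp lay 518 bp outside the window.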
